A study of Mus musculus with 6 samples.

Results

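The genes described here are 10 early response transcription factor genes, *Fos*, *Fosb*, *Fosl1*, *Fosl2*, *Jun*, *Junb*, *Jund*, *Atf3*, *Egr1* and *Nr4a1*. They were taken by symbol from the 39179 genes of a count table made from cortical thymic epithelial cells (cTEC), and 10 of 10 passed the filter on low counts that left 15576 genes for testing. The libraries came from untreated mice 10 weeks of age that carry the Cxcl12::DsRed reporter, in which DsRed, a red fluorescent protein, reports expression of the chemokine gene *Cxcl12*. Ly51+UEA1- cTEC were sorted by flow cytometry into Cxcl12DsRed- cTEC (3 libraries) and Cxcl12DsRed+ cTEC (3 libraries), with 1 library of each subset from experiment A, 1 from B and 1 from C. All 6 libraries therefore carry the reporter and passed through tissue digestion and sorting, so the level of these genes in undisturbed tissue was not measured. The study calls the libraries of a subset independently sorted biological replicates, although a legend also speaks of technical repeats. How many mice gave each library is not given in the sources used here.

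FOS and JUN proteins form the transcription factor AP-1, in which a FOS protein pairs with a JUN protein through a leucine zipper and binds the sequence TGACTCA. JUN proteins can also pair with each other and with ATF proteins such as ATF3, and pairs of JUN with ATF proteins prefer the cAMP response element (CRE), TGACGTCA. *Egr1* encodes a zinc finger factor and *Nr4a1* an orphan nuclear receptor. *Fos*, *Fosb*, *Jun*, *Junb*, *Atf3*, *Egr1* and *Nr4a1* are classical immediate early genes: growth factors, calcium and stress kinases switch them on without new protein synthesis, and dissociation of a tissue with enzymes is known to induce many of them. *Fosl1* and *Fosl2* tend to follow later, and *Jund* is expressed steadily in many cells.

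Promoter sequence was available for 8 of the 10 genes in RefSeq (GRCm38.p6), each entry running from 250 bases before the start to 50 bases from it on. The 5 genes whose Cxcl12DsRed- libraries all lay above their Cxcl12DsRed+ libraries are shown, as the 180 bases before the start in the gene's own direction. They are *Fos* (chr12:85473710-85473889, plus strand), *Fosb* (chr7:19310046-19310225, minus strand), *Jun* (chr4:95052223-95052402, minus strand), *Junb* (chr8:84978749-84978928, minus strand) and *Atf3* (chr1:191183334-191183513, minus strand). Capitals mark matches to the motifs searched.
Fos: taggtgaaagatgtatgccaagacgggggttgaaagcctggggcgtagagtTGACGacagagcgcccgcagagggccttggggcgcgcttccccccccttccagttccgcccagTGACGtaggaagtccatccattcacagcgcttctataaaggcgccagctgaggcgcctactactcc
Fosb: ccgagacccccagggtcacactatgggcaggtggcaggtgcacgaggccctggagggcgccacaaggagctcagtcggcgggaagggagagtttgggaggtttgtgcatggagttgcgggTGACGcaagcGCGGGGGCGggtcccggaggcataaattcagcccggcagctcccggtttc
Jun: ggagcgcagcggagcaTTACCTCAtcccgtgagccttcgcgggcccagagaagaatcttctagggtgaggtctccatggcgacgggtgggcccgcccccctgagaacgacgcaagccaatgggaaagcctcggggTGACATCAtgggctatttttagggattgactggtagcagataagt
Junb: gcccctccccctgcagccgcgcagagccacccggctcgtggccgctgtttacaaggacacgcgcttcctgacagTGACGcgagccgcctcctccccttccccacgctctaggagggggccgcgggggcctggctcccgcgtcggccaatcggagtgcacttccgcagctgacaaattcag
Atf3: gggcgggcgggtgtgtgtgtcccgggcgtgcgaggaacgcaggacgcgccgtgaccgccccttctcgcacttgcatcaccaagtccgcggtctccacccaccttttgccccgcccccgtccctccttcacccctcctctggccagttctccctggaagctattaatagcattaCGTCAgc
The motifs, read on both strands, were the AP-1 site TGACTCA, the CRE TGACGTCA, its core TGACG (which every CRE also holds), the octamers TGACATCA and TTACCTCA known from the *Jun* promoter, the EGR sites GCGGGGGCG and GCGTGGGCG, and the CArG box of serum response factor. The *Fos* window held the CRE core with its first base at -129 and at -66, and *Fosb* held it at -60 beside an EGR site at -50. *Jun* held TTACCTCA at -164 and TGACATCA at -45, *Junb* the CRE core at -106, and *Atf3* the CRE core in reverse at -7. Of all 32851 promoters of this length, 20.8% held the CRE core, 3.62% TGACATCA, 0.889% TTACCTCA and 3.47% an EGR site. *Nr4a1* had 4 matches to the CRE core and an EGR site, *Fosl2* had an EGR site, and *Jund* had none of these motifs. None of the 8 windows held the AP-1 site, the whole CRE or a CArG box, which 5.20%, 1.79% and 1.63% of all promoters held. Sites more than 250 bases before the start lay outside the windows, and *Egr1* and *Fosl1* were not among the 8 genes, so absence from the whole promoter is not shown. The *Atf3*, *Fosl2* and *Nr4a1* starts lie within the genes as GENCODE draws them, so they belong to transcripts that start further in. The *Fosb* start also lies just inside its gene, and 6 bases of its window are exon there. The *Jund* start lies upstream of the gene as GENCODE draws it, so its window does not adjoin the counted exons. These matches describe letters in a window and show no binding.

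Between the subsets, 8 of the 10 genes had a fitted fold change above 1 in Cxcl12DsRed- cTEC, and the values of *Fosl2* and *Nr4a1* lay the other way. Their median log2 fold change was 0.55, against 0.02 over all genes tested. For *Fos*, *Fosb*, *Jun*, *Junb* and *Atf3*, 5 of 10, every Cxcl12DsRed- library lay above every Cxcl12DsRed+ library, which held for 9.73% of all genes tested. The reverse order held for 0 of the 10 genes and for 9.32% of all genes, so this 0 is close to that share. With p adjusted by Benjamini-Hochberg over all genes tested, edgeR's quasi-likelihood test placed 0 of 10 under 0.05, where 97 of the 15576 genes (0.623%) did. At an unadjusted p under 0.05 there were 4, *Fos*, *Fosb*, *Jun* and *Atf3*, all higher in Cxcl12DsRed- cTEC, against a background of 7.02% in that direction. The likelihood ratio test called 0 of the 10 (5.65% of all genes), limma voom called 0 (0.0257%), and DESeq2 called *Jun* and *Atf3* (7.19%). When experiment entered as a replicate block, the quasi-likelihood test called 0 (0.469%) and the likelihood ratio test called *Atf3* alone (6.81%). The differences below are thus descriptions of these libraries where no call is named. In bulk RNA, more cells that express a gene and more RNA per cell cannot be told apart.

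**Figure D1:**
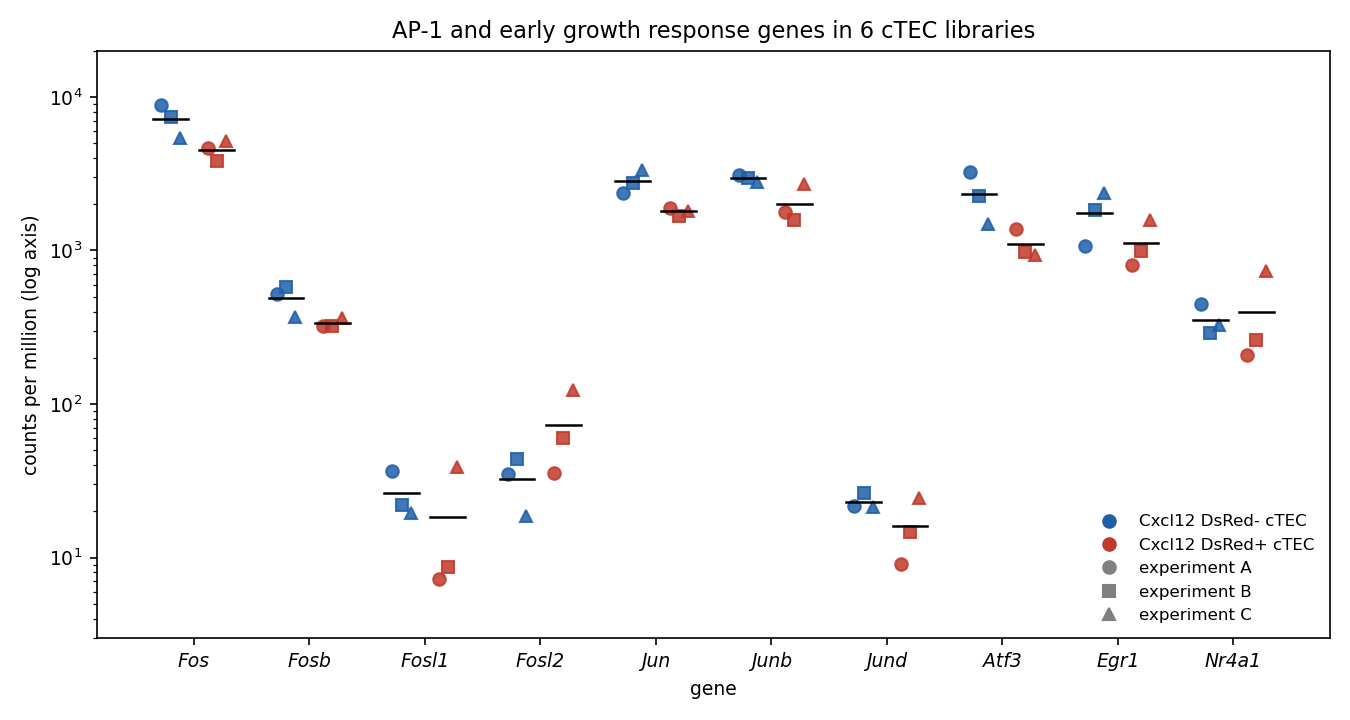
Level of each gene in CPM (log axis) in the 3 Cxcl12DsRed- libraries (blue, left) and the 3 Cxcl12DsRed+ libraries (red, right), with the shape giving the experiment and the bar the subset mean. *Fos* lies highest, at 3852 to 8928, and the Cxcl12DsRed+ library of C (red triangle) is the highest of all 6 for *Fosl1*, *Fosl2* and *Nr4a1*.

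The *FOS* family was led by *Fos*. Its level was 8928, 7402 and 5371 CPM (counts-per-million, on library sizes scaled by TMM) in Cxcl12DsRed- cTEC of A, B and C, against 4620, 3852 and 5156 CPM in Cxcl12DsRed+ cTEC. The lowest Cxcl12DsRed- library, that of C, stood just above the highest Cxcl12DsRed+ library, also that of C. The log2 fold change was 0.67 ± 0.24 (SE; adjusted p = 0.330 by the quasi-likelihood test). By count, *Fos* ranked 5, 11 and 11 among all genes of the Cxcl12DsRed- libraries and 13, 24 and 7 among those of the Cxcl12DsRed+ libraries. It took 0.860%, 0.704% and 0.554% of the counts in Cxcl12DsRed- cTEC and 0.479%, 0.389% and 0.515% in Cxcl12DsRed+ cTEC.

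*Fosb*, whose product pairs with JUN proteins as FOS does, was measured at 521, 578 and 370 CPM in Cxcl12DsRed- cTEC and at 321, 322 and 363 CPM in Cxcl12DsRed+ cTEC. The subsets did not overlap, but in C they lay close together. The difference came to a log2 fold change of 0.55 ± 0.21 (SE; adjusted p = 0.372).

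The FOS-related antigens FRA-1 and FRA-2 lack the strong activation domain of FOS, and the mRNA of their genes lay below that of *Fos* and *Fosb*. *Fosl1*, the gene of FRA-1, was measured at 36.8, 21.9 and 19.7 CPM in Cxcl12DsRed- cTEC, against 7.26, 8.63 and 38.9 CPM in Cxcl12DsRed+ cTEC. Its highest library was thus the Cxcl12DsRed+ library of C, while those of A and B were the lowest of the 6. In log2, the fold change was 0.52 ± 0.71 (SE; adjusted p = 0.879), 1.68 without the Cxcl12DsRed+ library of C and -0.22 without both libraries of A. Of the exon bases of *Fosl1*, 57.2% are also exon of *Ccdc85b* on the opposite strand. The use of strand in counting is not given in the sources used here, so its counts are uncertain. Any shared reads set aside as ambiguous would be missing from them.

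*Fosl2*, the gene of FRA-2, was the only one of the 10 to lie lower in Cxcl12DsRed- cTEC in all 3 experiments, which 17.5% of all genes did. Its level was 34.9, 43.8 and 18.6 CPM in Cxcl12DsRed- cTEC and 35.5, 60.0 and 124 CPM in Cxcl12DsRed+ cTEC. In A the subsets were nearly equal, and the gap lay mostly in C, where the Cxcl12DsRed- library was the lowest and the Cxcl12DsRed+ library the highest of the 6. Its log2 fold change was -1.17 ± 0.53 (SE; adjusted p = 0.456), -0.60 without the Cxcl12DsRed+ library of C and -0.31 without both libraries of C.

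Set per kilobase of exon, so that genes can be compared, *Fos* made up 96.7% to 97.3% of the summed level of the 4 *FOS* family genes in Cxcl12DsRed- cTEC and 96.1% to 97.1% in Cxcl12DsRed+ cTEC. *Fosb* came next, with 2.14% to 2.85% in Cxcl12DsRed- cTEC and 2.54% to 3.03% in Cxcl12DsRed+ cTEC. *Fosl2* held 0.0817% to 0.139% in Cxcl12DsRed- cTEC and 0.181% to 0.562% in Cxcl12DsRed+ cTEC, so that its share, though small, did not overlap between the subsets. This sum is nearly all *Fos*, which was itself higher in every Cxcl12DsRed- library. The level of *Fosl2* did overlap, at 43.8 CPM in Cxcl12DsRed- cTEC of B and 35.5 CPM in Cxcl12DsRed+ cTEC of A. How often such a share does not overlap for other genes was not measured.

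Among the *JUN* family, *Jun*, which encodes the strongest activator of the family, was measured at 2368, 2746 and 3368 CPM in Cxcl12DsRed- cTEC and at 1903, 1681 and 1812 CPM in Cxcl12DsRed+ cTEC. The subsets did not overlap, and the gap was widest in C and narrowest in A, unlike *Fos*. The log2 fold change was 0.65 ± 0.19 (SE; adjusted p = 0.211 by the quasi-likelihood test, 0.0325 by DESeq2). A share of 7.28% of its exon bases is also exon of the antisense gene *Junos*, which had 34 to 203 counts in Cxcl12DsRed- cTEC and 0 to 72 in Cxcl12DsRed+ cTEC, against 70313 to 136951 counts of *Jun* over the 6 libraries.

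*Junb*, whose product can restrain JUN, was measured at 3103, 2960 and 2797 CPM in Cxcl12DsRed- cTEC and at 1785, 1579 and 2698 CPM in Cxcl12DsRed+ cTEC. The 3 Cxcl12DsRed- libraries were close together, and the Cxcl12DsRed+ library of C came within reach of them. This gave a log2 fold change of 0.55 ± 0.24 (SE; adjusted p = 0.442). Exons of *Prdx2* cover 7.52% of its exon bases on the other strand.

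*Jund* was low here at 21.8, 26.2 and 21.4 CPM in Cxcl12DsRed- cTEC and 9.07, 14.6 and 24.5 CPM in Cxcl12DsRed+ cTEC. The Cxcl12DsRed+ library of C lay among the Cxcl12DsRed- libraries, and those of A and B below them. The fit gave a log2 fold change of 0.53 ± 0.44 (SE; adjusted p = 0.768). Its counts are uncertain, since 52.6% of its exon bases are also exon of the antisense gene *Gm11175*, which had 0 counts in all 6 libraries. Any shared reads set aside as ambiguous would be missing from its level, which was not tested. Per kilobase, *Junb* made up 53.2% to 64.1% of the 3 *JUN* family genes in Cxcl12DsRed- cTEC and 56.1% to 66.8% in Cxcl12DsRed+ cTEC, and *Jun* 35.3% to 46.2% in Cxcl12DsRed- cTEC and 32.4% to 43.3% in Cxcl12DsRed+ cTEC. *Jund* made up at most 0.726% in Cxcl12DsRed- cTEC and 0.835% in Cxcl12DsRed+ cTEC.

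*Atf3*, which encodes a stress-induced factor that pairs with JUN proteins, had the largest fitted difference of the 10 genes that was above 0. Its level was 3258, 2265 and 1495 CPM in Cxcl12DsRed- cTEC, against 1383, 984 and 939 CPM in Cxcl12DsRed+ cTEC. The subsets did not overlap, although the Cxcl12DsRed- library of C and the Cxcl12DsRed+ library of A came close. The log2 fold change was 1.09 ± 0.32 (SE; adjusted p = 0.212 by the quasi-likelihood test), or 2.12-fold. Adjusted p was 0.0240 by DESeq2 and 0.0171 by the likelihood ratio test with the replicate block, and ranged from 0.0171 to 0.706 over its 18 alternatives. Without the Cxcl12DsRed- library of A the log2 fold change was 0.74, and without that of C it was 1.32.

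*Egr1*, whose product binds GC-rich sites of growth and repair genes, was measured at 1075, 1847 and 2378 CPM in Cxcl12DsRed- cTEC and at 799, 991 and 1575 CPM in Cxcl12DsRed+ cTEC. It was higher in Cxcl12DsRed- cTEC within each experiment, but the subsets overlapped, because the Cxcl12DsRed- library of A lay under the Cxcl12DsRed+ library of C. The log2 fold change was 0.66 ± 0.37 (SE; adjusted p = 0.590), and 0.64 under the replicate block (adjusted p = 0.283).

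*Nr4a1*, known in T cells as a marker of antigen receptor signals, was measured at 451, 289 and 325 CPM in Cxcl12DsRed- cTEC and at 209, 260 and 732 CPM in Cxcl12DsRed+ cTEC. The Cxcl12DsRed+ libraries of A and B were the lowest of the 6 and that of C the highest. The log2 fold change of -0.17 ± 0.49 (SE; adjusted p = 0.954) thus gave no direction: it was 0.036 with the replicate block, 0.063 by limma voom, and 0.56 without the Cxcl12DsRed+ library of C.

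Compared per kilobase of exon over the 6 libraries, *Fos* at 1638 to 3796 CPM per kilobase lay above each of the other 9 genes in all libraries. *Junb* (686 to 1348), *Atf3* (436 to 1512) and *Jun* (527 to 1056) followed, with ranges that overlapped. *Egr1* (178 to 530), *Nr4a1* (59.5 to 209) and *Fosb* (51.5 to 92.6) came next, each overlapping its neighbour in this order. *Fosl1* (3.57 to 19.2), *Jund* (5.44 to 15.7) and *Fosl2* (1.92 to 12.8) were the lowest, overlapped each other and lay below the range of *Fosb*. The values of *Fosl1* and *Jund* may be too low, since reads shared with overlapping genes may not have been counted. Together the 10 genes took 1.91%, 1.73% and 1.67% of the counts in Cxcl12DsRed- cTEC and 1.15%, 0.984% and 1.34% in Cxcl12DsRed+ cTEC.

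Because each experiment gave both subsets, the difference was also read within experiments. In A and in B, 9 of the 10 genes lay higher in Cxcl12DsRed- cTEC (50.0% and 48.0% of all genes tested did), with *Fosl2* the exception in both, and in C, 6 of 10 did (51.0% of all genes). The median log2 ratio over the 10 genes was 0.87 within A, 0.87 within B and 0.04 within C. In C the log2 ratio was 0.06 for *Fos*, 0.03 for *Fosb* and 0.05 for *Junb*, and larger for *Jun* (0.89), *Atf3* (0.67) and *Egr1* (0.59). Each ratio within an experiment rests on 1 library of each subset, without a replicate. *Fosl1*, *Fosl2*, *Jund* and *Nr4a1* lay lower in Cxcl12DsRed- cTEC of C. In all 3 experiments, 6 of 10 genes lay higher, against 17.5% of all genes tested.

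The Cxcl12DsRed+ library of C was also the one with the highest summed level of endothelial markers. This sum was 70 to 136 CPM in Cxcl12DsRed- cTEC and 867 to 6481 CPM in Cxcl12DsRed+ cTEC, with 6481 CPM in C. Markers of medullary thymic epithelial cells (mTEC) had their lowest sum in the Cxcl12DsRed+ library of C, at 3172 CPM. Their sums were 12351 and 13364 CPM in Cxcl12DsRed+ cTEC of A and B, and 7079 to 10601 CPM in Cxcl12DsRed- cTEC. Of the Cxcl12DsRed+ libraries, that of C also had the lowest cTEC marker sum, at 14220 CPM. Without that library 9 of the 10 genes had every Cxcl12DsRed- library above every Cxcl12DsRed+ library (13.8% of all genes did), *Fosl2* being the exception, and the quasi-likelihood test called 0 of 10, but also no more than 1 of 16704 genes (0.00599%). The part of endothelial RNA, or of the other marker differences, in these values was not tested.

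**Figure D2:**
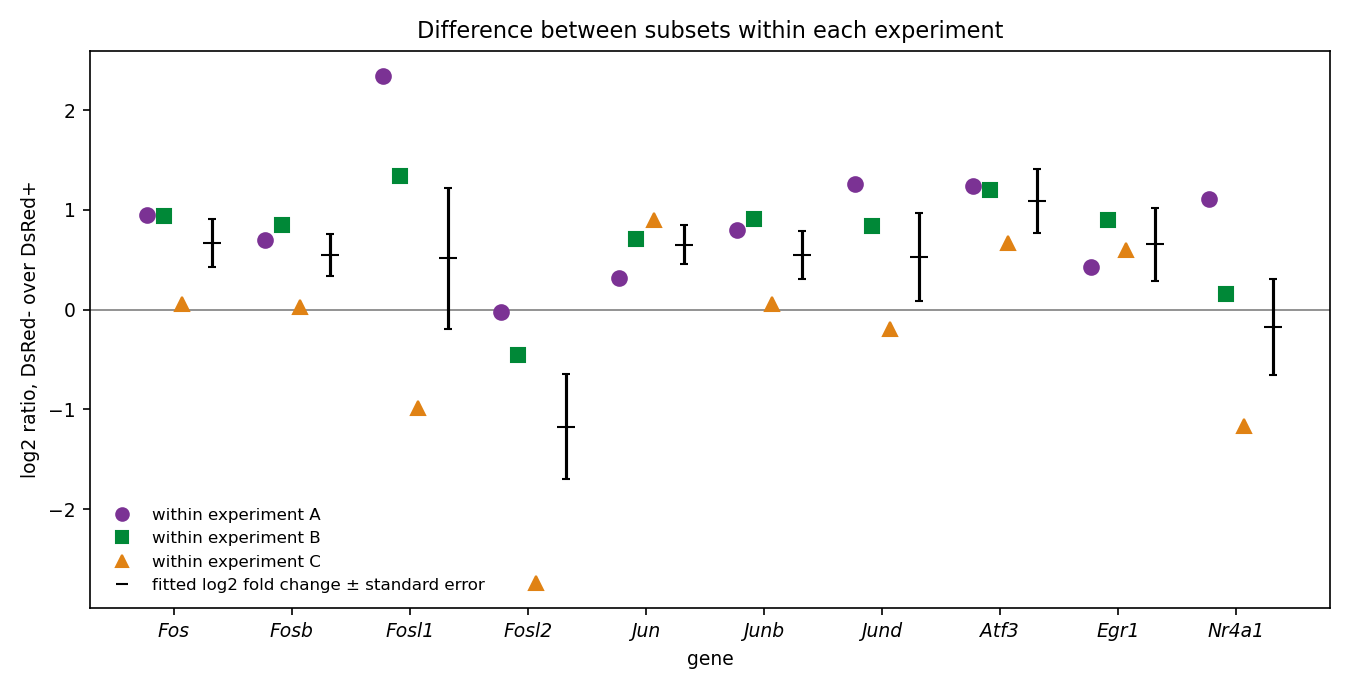
Log2 ratio of Cxcl12DsRed- over Cxcl12DsRed+ cTEC for each gene within experiments A (circles), B (squares) and C (triangles), and the fitted log2 fold change with its standard error (black). In C, *Fos*, *Fosb* and *Junb* lie at 0.03 to 0.06 and *Fosl2* at -2.74, while *Jun*, *Atf3* and *Egr1* lie above 0 in each experiment.

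The genes were next compared between the experiments, in a model with the subset as a term. By edgeR's quasi-likelihood test 0 of the 10 genes and 0 of 15576 genes (0.0%) passed an adjusted p of 0.05. At an unadjusted p under 0.05 there were 2 of 10, *Egr1* and *Atf3* (adjusted p = 0.992 for both), against 3.77% of all genes, and the likelihood ratio test called 0 of 10 (1.34% of all genes). *Egr1* was lowest in A and highest in C in both subsets, and *Atf3* was highest in A and lowest in C in both. These 2 of the 10 genes were the ones with the same order of experiments in both subsets, as were 17.9% of all genes tested. The count of 2 of 10 is thus close to that share. The counts of *Atf3* relative to those of *Egr1* were 3.03, 1.23 and 0.629 in Cxcl12DsRed- cTEC of A, B and C, and 1.73, 0.992 and 0.596 in Cxcl12DsRed+ cTEC. The fall of this ratio from A to C follows from the opposite orders of the 2 genes and is no further result. What distinguished the experiments beyond their letter is not given in the sources used here.

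**Figure D3:**
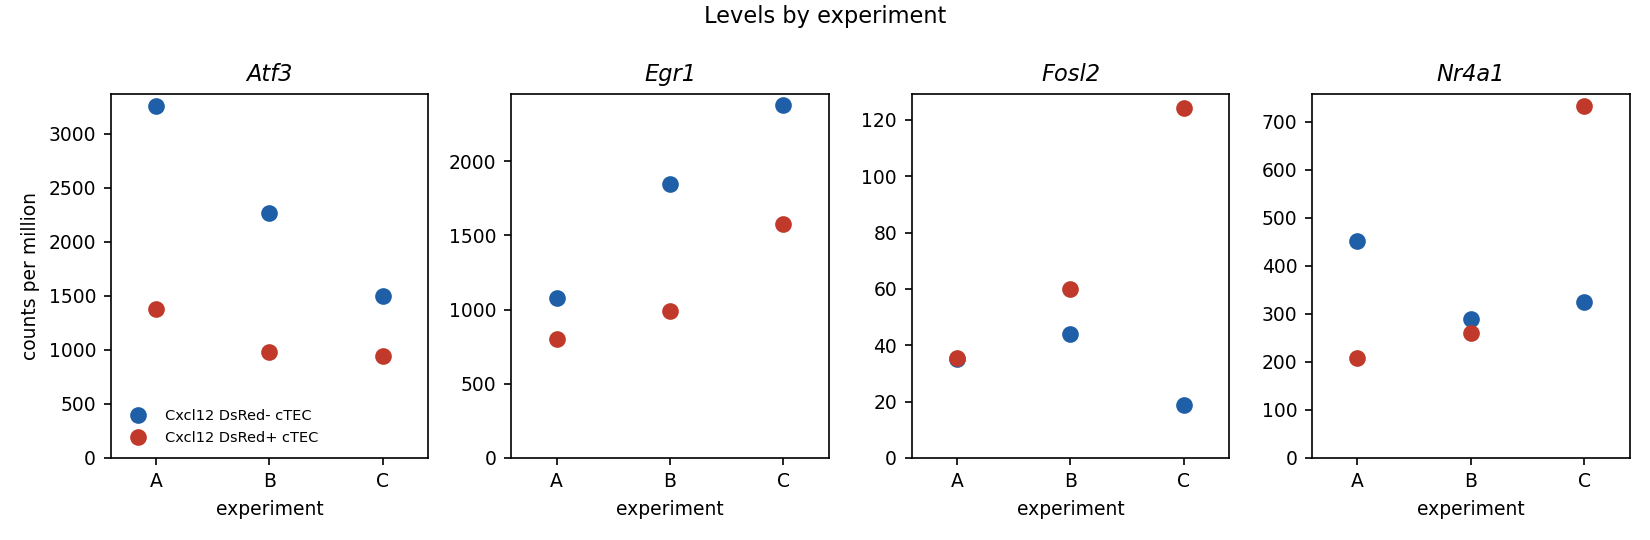
Levels of *Atf3*, *Egr1*, *Fosl2* and *Nr4a1* in CPM (axes from 0) by experiment, in Cxcl12DsRed- cTEC (blue) and Cxcl12DsRed+ cTEC (red), 1 library a point. *Atf3* is highest in A and *Egr1* in C in both subsets, *Fosl2* and *Nr4a1* are highest in the Cxcl12DsRed+ library of C, and the 2 points of *Fosl2* in A nearly coincide.

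Among libraries of the same subset, the SD of log2 CPM had a median of 0.35 over the 10 genes in Cxcl12DsRed- cTEC (0.64 over all genes tested) and of 0.45 in Cxcl12DsRed+ cTEC (0.47 over all genes). The medians over all genes are not matched to the 10 genes in level. Set beside genes within a factor of 2 of the same mean level, *Atf3* and *Egr1* varied more in Cxcl12DsRed- cTEC, with SDs of 0.56 and 0.59 where the medians of such genes were 0.24 and 0.22, as did *Fosl2*, at 0.64 against 0.42. *Fosb* (0.34 against 0.22), *Nr4a1* (0.33 against 0.23), *Fos* (0.37 against 0.32) and *Jun* (0.26 against 0.23) also lay above the medians of such genes there. *Junb* varied less there, at 0.08 against 0.24, and so did *Jund* (0.16 against 0.61) and *Fosl1* (0.48 against 0.58). In Cxcl12DsRed+ cTEC, *Fosl1* (1.33 against 0.40), *Nr4a1* (0.97 against 0.27) and *Fosl2* (0.91 against 0.32) varied most. *Jund* (0.72 against 0.42), *Egr1* (0.50 against 0.29), *Junb* (0.40 against 0.36) and *Atf3* (0.30 against 0.29) also lay above the medians of such genes. *Jun* (0.09 against 0.33), *Fosb* (0.10 against 0.27) and *Fos* (0.21 against 0.37) lay below the medians of such genes there. Each SD comes from 3 libraries, and only the median of such genes was taken, so small gaps carry little weight.

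Across the 6 libraries, log2 CPM of *Fos* had a Pearson's r of 0.93 with *Fosb*, 0.92 with *Atf3*, 0.85 with *Junb* and 0.70 with *Fosl1*. For *Jund* (0.59), *Jun* (0.53), *Nr4a1* (0.31) and *Egr1* (0.25) it was lower, and for *Fosl2* it was -0.24. Of 9481 other genes with a mean of at least 10 CPM, 54 had an r over 0.95, and the highest were *Neat1* (0.996), *Cdh2* (0.996), *Med6* (0.995), *Phf11d* (0.995) and *Osgin1* (0.994). *Neat1*, a nuclear long noncoding RNA, was measured at 56.3, 41.9 and 17.9 CPM in Cxcl12DsRed- cTEC and at 12.2, 8.76 and 17.9 CPM in Cxcl12DsRed+ cTEC. These correlations describe 6 points that fall into 2 subsets and share their libraries with all other genes.

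In the other lists of the early response 0 genes passed the quasi-likelihood test in either direction. Their counts at an unadjusted p under 0.05 cover both directions and stand beside 11.8% of all genes tested. The bZIP partners of AP-1 (16 of 17 tested) had a median log2 fold change of 0.09, with 1 gene at an unadjusted p under 0.05 and 1 called by the likelihood ratio test and by DESeq2. Among those with the smallest p were the cAMP-responsive *Crem*, at -0.79 ± 0.41 (SE), and the stress factor gene *Atf4*, at 0.50 ± 0.28 (SE).

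The other immediate early transcription factors (17 of 18 tested) had a median of 0.28, with 2 genes at an unadjusted p under 0.05 and 0 called by the likelihood ratio test or DESeq2. *Ier2* was measured at 1209, 1077 and 1084 CPM in Cxcl12DsRed- cTEC and at 707, 626 and 913 CPM in Cxcl12DsRed+ cTEC, without overlap (log2 fold change 0.59 ± 0.20, SE, adjusted p = 0.288). *Egr3*, a relative of *Egr1*, was highest in the Cxcl12DsRed- libraries of A and B, with 4.48, 6.27 and 0.369 CPM in Cxcl12DsRed- cTEC and 0.265, 0.480 and 0.670 CPM in Cxcl12DsRed+ cTEC. *Klf6*, a zinc finger factor induced by injury, was measured at 1355, 1193 and 412 CPM in Cxcl12DsRed- cTEC and 562, 493 and 471 CPM in Cxcl12DsRed+ cTEC.

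The ERK, JNK and p38 kinases with the cofactors of serum response factor, which lie upstream of these genes, had a median of -0.33 over 25 of 25 genes. A single gene had an unadjusted p under 0.05, *Rps6ka3*, which encodes a kinase that ERK activates, at -1.41 ± 0.37 (SE; adjusted p = 0.161), which DESeq2 called and the likelihood ratio test did not. *Elk3*, a cofactor of serum response factor, had -2.21 ± 0.94 (SE), with 6.67 to 20.8 CPM in Cxcl12DsRed- cTEC and, in Cxcl12DsRed+ cTEC, 17.5, 17.6 and 145 CPM in A, B and C. *Nras* had -0.42 ± 0.20 (SE).

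The feedback inhibitors and mRNA decay factors had a median of 0.15 over 30 of 30 genes, with 7 at an unadjusted p under 0.05 in mixed directions. *Dusp4*, a nuclear phosphatase that inactivates MAP kinases, was measured at 24.8, 44.5 and 3.25 CPM in Cxcl12DsRed- cTEC and 0.0756, 0.584 and 1.31 CPM in Cxcl12DsRed+ cTEC (adjusted p = 0.156). It was the 1 gene of this list that the likelihood ratio test and DESeq2 called. *Errfi1*, an inhibitor of the EGF receptor, had a log2 fold change of 0.75 ± 0.24 (SE), and the antiproliferative gene *Btg2* had 0.71 ± 0.23 (SE).

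The early secreted and surface products had a median of 0.31 over 20 of 20 genes, with 6 at an unadjusted p under 0.05. *Thbs1*, the gene of the matrix protein thrombospondin-1, had a log2 fold change of 1.64 ± 0.36 (SE; adjusted p = 0.102), and the hyaluronan receptor gene *Cd44* had 1.11 ± 0.29 (SE; adjusted p = 0.157). The likelihood ratio test called both, and DESeq2 called both. DESeq2 also called the cytokine gene *Il6*, which lay the other way, at 3.51, 31.5 and 42.4 CPM in Cxcl12DsRed- cTEC and 42.8, 63.8 and 426 CPM in Cxcl12DsRed+ cTEC (log2 fold change -2.78 ± 1.16, SE). The neutrophil chemokine gene *Cxcl2* had 2.48 ± 0.93 (SE).

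Heat shock genes, which respond to protein damage and handling, had a median of 0.33 over 12 of 12 genes, with 2 at an unadjusted p under 0.05. Their summed level was 11774, 9639 and 8321 CPM in Cxcl12DsRed- cTEC and 7080, 6977 and 9347 CPM in Cxcl12DsRed+ cTEC, so the subsets overlapped in C. The co-chaperone gene *Dnajb1* had a log2 fold change of 0.91 ± 0.28 (SE; adjusted p = 0.234), and was called by DESeq2 and not by the likelihood ratio test. *Hsph1* (1.13 ± 0.46, SE) and *Hspa1b* (0.72 ± 0.33, SE) followed.

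**Figure D4:**
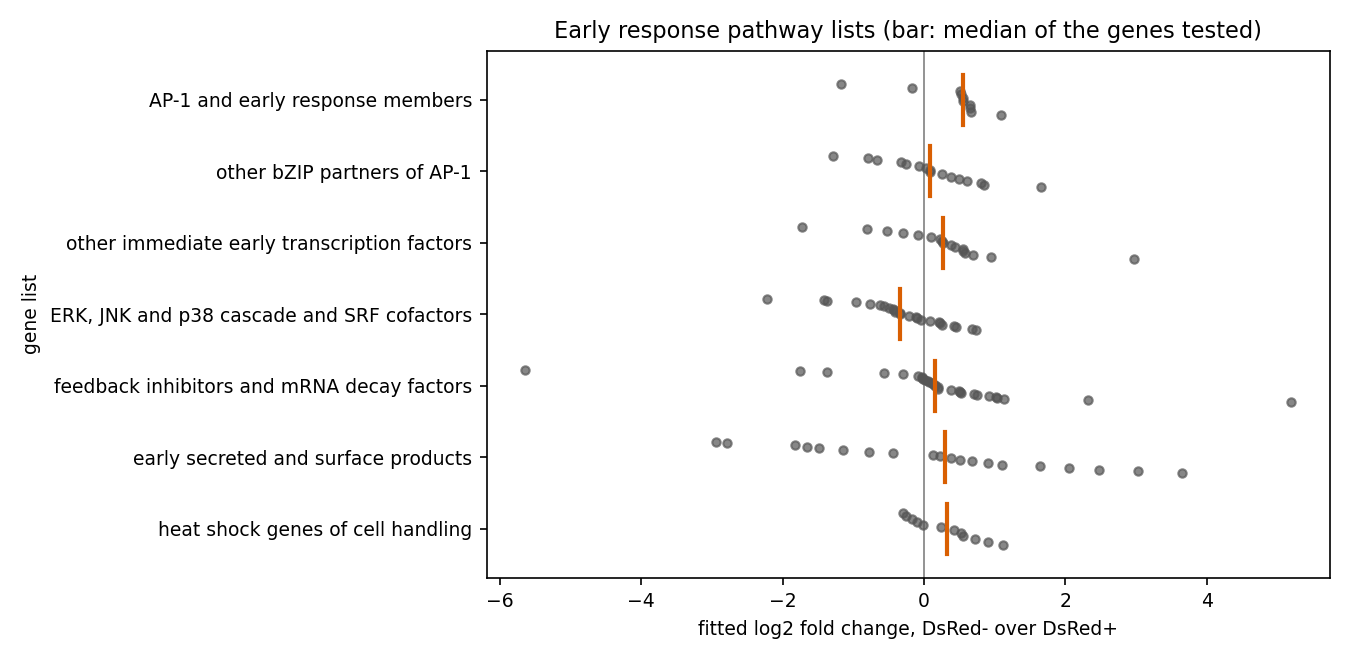
Fitted log2 fold change of Cxcl12DsRed- over Cxcl12DsRed+ cTEC for each tested gene of 7 lists, with an orange bar at the median of each list. The medians lie at 0.55 for the AP-1 and early response genes, -0.33 for the kinase list and between 0.09 and 0.33 for the other 5.

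Markers of other cells differed between the libraries, and their part in the values above was not tested. Depth was 34574900 to 51042679 counts in genes per library, and mitochondrial genes took 1.17% to 4.01% of the counts. The DsRed transcript was at 16.8 to 28.6 CPM of the counts in genes in Cxcl12DsRed- cTEC and 891 to 2055 CPM in Cxcl12DsRed+ cTEC. The 13 cTEC markers were all detected in both subsets, and summed to 6478 to 9724 CPM in Cxcl12DsRed- cTEC and 14220 to 24914 CPM in Cxcl12DsRed+ cTEC. Of the 13, 10 lay lower in every Cxcl12DsRed- library (9.32% of all genes) and 1 lay higher in every Cxcl12DsRed- library (9.73% of all genes). The quasi-likelihood test passed 3 of the 13, all lower in Cxcl12DsRed- cTEC (0.623% of all genes). That test also passed 3 tuft cell markers, higher in Cxcl12DsRed- cTEC, and 2 endothelial markers, lower there. In the other marker lists 0 genes passed it. For 12 of 12 tuft cell markers every Cxcl12DsRed- library lay above every Cxcl12DsRed+ library (9.73% of all genes), with sums of 2830, 802 and 513 CPM in Cxcl12DsRed- cTEC and 41 to 45 CPM in Cxcl12DsRed+ cTEC, where *Il25* was at 0. Sums of fibroblast and pericyte markers were 4101 to 5042 CPM in Cxcl12DsRed- cTEC and 2056 to 2248 CPM in Cxcl12DsRed+ cTEC, with 1 of 10 genes not overlapping, a share close to that of all genes. Myeloid markers summed to 187 to 999 CPM in Cxcl12DsRed- cTEC and 45 to 118 CPM in Cxcl12DsRed+ cTEC. Of the 8 tested, 3 lay higher in every Cxcl12DsRed- library (9.73% of all genes). Of the 14 endothelial markers 12 lay lower in every Cxcl12DsRed- library (9.32% of all genes). The mTEC and thymocyte sums overlapped between the subsets.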

How the data were processed

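RNA was measured in 6 libraries made with the SMARTer Ultra Low Input kit from polyadenylated RNA, 3 per cTEC subset. As the methods and processing notes state, Trimmomatic 0.36 trimmed the reads, STAR 2.7.3a aligned them to mm10 and HTSeq assigned them to genes, and the authors deposited whole-number counts per gene with no normalization. For the annotation release and the strand setting: not given in the sources used here. Reads in no gene, ambiguous reads and multiply aligned reads came to 5.87% to 9.35%, 1.21% to 1.38% and 5.61% to 9.07% of the counts in genes. These entries, the spike-in names and the DsRed reporter entered neither library sizes nor tests.

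Genes were named and measured in length from GENCODE vM21 (GRCm38), whose union of exons gave counts per kilobase. Analysis used edgeR 4.0.16 (R 4.3.3): filterByExpr with a minimum count of 10, TMM scaling, a quasi-likelihood test of Cxcl12DsRed- against Cxcl12DsRed+ cTEC and of the experiments with subset as a term, and Benjamini-Hochberg adjustment at 0.05. SEs are the fold change over the root of F, and log2 CPM used a prior count of 0.125. The methods name edgeR without naming its test. Alternatives were the likelihood ratio test, a block for experiment in either test, DESeq2 1.42.0 (adjusted p not available for 532 genes), limma 3.58.1 with voom, other scalings and filters, and leaving out each library and experiment. The scripts' tests were tested on simulated data. Experiment letters occur in both subsets and pair the libraries. As a check, the deviations of 2 libraries with the same letter from the mean of their own subset had a correlation over genes of -0.0086 (A), 0.061 (B) and 0.042 (C). Libraries with unlike letters gave -0.070 to 0.019, a range that holds the value of A. The pairing therefore rests on the letters, and this check adds little to it. No pair of libraries was a duplicate, with a chi-square per degree of freedom of at least 132. Plots were drawn with matplotlib 3.10.9.

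The members and lists were chosen with earlier results of these data known. The text names all 10 members, in each other list the genes called and the 3 with the smallest p, and the 5 genes most correlated with *Fos*. A gene that this rule selects is not reported here. Promoters are those of RefSeq for GRCm38.p6.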

Additional observations from a re-analysis of the deposited data

How the results depend on the processing

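Over 180 fits of the members' fold changes under alternatives, 174 kept their direction, 6 turned and 3 passed the threshold. *Nr4a1* turned to a log2 fold change of 0.036 with the replicate block (also with the block in the likelihood ratio test), 0.063 by limma voom, and 0.56 and 0.63 without the Cxcl12DsRed+ library or both libraries of C, with a range of -0.72 to 0.63 when libraries were left out. *Fosl1* turned to -0.22 without both libraries of A, in a range of -0.22 to 1.86. The number of members called was 0, but 1 by the likelihood ratio test with the replicate block and 2 by DESeq2. The replicate block changed no other call of a member. The 97 genes called between the subsets became 880 by the likelihood ratio test, 1060 by that test with the block, 1081 by DESeq2, 4 by limma voom and 168 with no filter, 73 with the block in the quasi-likelihood test, and 0 to 139 when a library or an experiment was left out (139 without the Cxcl12DsRed- library of C, 35 without both of C). The 0 genes called between the experiments became 208 by the likelihood ratio test. The 5 members whose subsets did not overlap became 6 to 9 when libraries were left out, in alternatives chosen after seeing the data: 9 without the Cxcl12DsRed+ library of C or both of C (13.8% and 23.1% of all genes), and 6 without the Cxcl12DsRed- library of A or both of A (14.0% and 20.0%), where the share with all libraries was 9.73%. The cause of these shifts was not tested. With 3 libraries a subset, SEs were 0.19 to 0.71, and no member passed the quasi-likelihood test once p was adjusted over 15576 genes. Reads were amplified, so a count is not a molecule.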

Other observations

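The relatives of *Egr1* and *Nr4a1* and some feedback genes were looked at after their values were seen, and are given as values. *Egr2* was at 110, 133 and 43.0 CPM in Cxcl12DsRed- cTEC of A, B and C, and at 67.5, 82.3 and 60.5 CPM in Cxcl12DsRed+ cTEC. *Nr4a2* was at 16.6, 0.304 and 10.5 CPM in Cxcl12DsRed- cTEC and at 21.0, 20.4 and 49.1 CPM in Cxcl12DsRed+ cTEC, and *Nr4a3* at 9.79, 15.6 and 1.80 CPM in Cxcl12DsRed- cTEC and at 3.44, 10.4 and 33.5 CPM in Cxcl12DsRed+ cTEC. As for *Nr4a1*, the highest library of both was the Cxcl12DsRed+ library of C. *Dusp1*, the gene of a phosphatase that inactivates MAP kinases, was at 317, 663 and 875 CPM in Cxcl12DsRed- cTEC. In Cxcl12DsRed+ cTEC it was at 342, 616 and 930 CPM. Its log2 fold change between the subsets was -0.03. It had the same order of experiments as *Egr1* in both subsets, and 17.9% of all genes tested kept 1 order in both. *Zfp36*, whose product destabilises early response mRNAs, was at 2069, 1931 and 1916 CPM in Cxcl12DsRed- cTEC and at 1244, 1443 and 3180 CPM in Cxcl12DsRed+ cTEC. None of these genes passed the quasi-likelihood test between the subsets, and 0 of 15576 genes passed it between the experiments.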
